A study of Mus musculus with 2 samples.

Results

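The barcodes described here had intermediate numbers of detected genes in 2 single-cell libraries from embryonic day 7 mouse embryos. They were selected on measured values: at least 2000 and fewer than 5000 detected genes (rows with at least 1 unique molecular identifier, UMI) and at most 10% of UMIs from mitochondrially encoded genes. Of the 1829 barcodes of the control library 300 met the rule (16.4%, exact 95% interval 14.7 to 18.2), and of the 1897 barcodes of the *Yap1* cKO library 413 did (21.8%, 19.9 to 23.7). They are called intermediate barcodes below, and the 791 control and 864 cKO barcodes with 5000 or more genes within the same mitochondrial limit are called high-gene barcodes. The study's own filter, which required 5000 genes, removed every intermediate barcode.

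The *Yap1* cKO pool carried Sox2cre with *Yap* flox/flox, and the control pool Sox2cre with *Yap* flox/+ by the series design and the study's single-cell methods. The control is labelled WT, and a general passage of the mouse methods describes Cre-negative controls. *Yap1* encodes a transcriptional co-activator of the Hippo pathway. Sox2-Cre recombines in the epiblast and its derivatives and not in the extraembryonic lineages, so by design visceral endoderm and trophoblast of the cKO pool carry no full deletion. Embryos were pooled by genotype, dissociated enzymatically (trypsin by the labels, TrypLE by the study's methods), and measured as 1 10x Genomics 3' library (v3.1 chemistry) per genotype. With 1 library per genotype no test between genotypes could be made, and because the gene-number groups were cut from measured values no test was made between them either. Intervals cover counting error only. Where library and genotype coincide, they cannot be told apart.

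The embryo at this stage consists of the epiblast, which gives rise to the fetus, the primitive streak, through which epiblast cells leave to form mesoderm and endoderm, and 2 extraembryonic epithelia. The visceral endoderm surrounds the embryo and absorbs and secretes nutrients, so it is rich in apolipoproteins, transport proteins and lysosomes. The extraembryonic ectoderm is the trophoblast next to the epiblast and feeds the placenta. Parietal endoderm, ectoplacental cone, decidua and maternal blood surround these tissues and can be carried over in dissection.

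The library labels call both samples female, but UMIs from Y-linked genes were present in both. Among intermediate barcodes 87 control and 35 cKO barcodes held at least 1 Y-linked UMI, 27 and 119 held at least 1 UMI of *Xist*, the RNA of the inactive X chromosome, and 186 and 262 held neither. Among high-gene barcodes 16 of 791 and 19 of 864 held neither. Neither library matched its sex label. The libraries shared 2 barcode sequences, 0 of which were intermediate barcodes.

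The control library held 70573418 UMIs and the cKO library 87937858. Intermediate barcodes held 3902343 of them in control (5.53%) and 4853749 in cKO (5.52%). Their median depth was 10531.5 UMIs in control (range 3525 to 38691) and 9838 in cKO (3642 to 40108), against 75715 and 80921.5 in high-gene barcodes. The gene numbers ran without a gap across both limits. The nearest barcodes below the lower limit had 1998 genes in control and 1993 in cKO, and the lowest inside it 2003 and 2008. At the upper limit the values were 4970 and 4997 inside and 5001 and 5017 outside. Within 100 genes above the lower limit, 19 control barcodes had a median mitochondrial share of 0.0887% and 25 cKO barcodes 0.322%. Within 100 genes below it, 22 and 20 barcodes had 0.237% and 0.368%. At the upper limit, 4 control and 7 cKO barcodes within 100 genes below it had medians of 0.375% and 0.235%. The 4 control and 4 cKO barcodes within 100 genes above it had 0.0147% and 2.47%. The mitochondrial limit removed 1 control barcode of this gene range, at 16.2%, and 4 cKO barcodes at 10.0 to 13.3%.

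Most intermediate barcodes held little mitochondrial RNA. The median mitochondrial share was 0.108% in control and 0.109% in cKO, against 0.819% and 0.813% in high-gene barcodes. In control 147 barcodes (49.0%) and in cKO 205 (49.6%) lay below 0.1%, compared with 10 and 11 high-gene barcodes. A small number lay at the other end: 23 control and 24 cKO intermediate barcodes exceeded 2%. The medians of the 3 gene-number bands that start at 2000, 3000 and 4000 genes were 0.142%, 0.0689% and 0.109% in control and 0.0990%, 0.0597% and 0.290% in cKO, so that none of the bands approached the high-gene median.

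*Malat1*, a long non-coding RNA that stays in the nucleus (chr19:5795690-5802672, minus strand, GRCm38), was another transcript in which these barcodes stood apart. Its median was 33.3 CPM (UMIs of the gene scaled to the same total in every set of barcodes) in control and 45.6 in cKO, against 1600 and 1538 in high-gene barcodes. No *Malat1* UMI was seen in 149 control barcodes (49.7%, 43.9 to 55.5) and 198 cKO barcodes (47.9%, 43.0 to 52.9), whereas 5 and 8 high-gene barcodes lacked it (0.632% and 0.926%). Both features coincided, with *Malat1* at 0 and a mitochondrial share below 0.1%, in 88 control and 146 cKO intermediate barcodes and in 1 and 3 high-gene barcodes. Depth differed between the groups, so each barcode was thinned to 4500 UMIs, which left out 5 control and 17 cKO intermediate barcodes. *Malat1* was then seen in 39.0% of control and 43.7% of cKO intermediate barcodes and in 97.98% and 96.9% of high-gene barcodes. A mitochondrial UMI was seen in 75.9% and 66.4% against 99.6% and 99.5%, and *Xist*, another nuclear RNA, in 6.44% and 21.2% against 33.1% and 64.2%. At this depth the intermediate barcodes had a median of 1765 genes in control and 1833 in cKO, below the 2050 and 2040 of the high-gene barcodes. The groups were divided by gene number, so this difference follows in part from the rule and is a description. The 2 clusters rich in *Malat1* described below were the exception, with medians of 2291.5 and 2329 genes in an epiblast-like cluster and 2104 and 2194 in a visceral endoderm-like one.

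**Figure D1:**
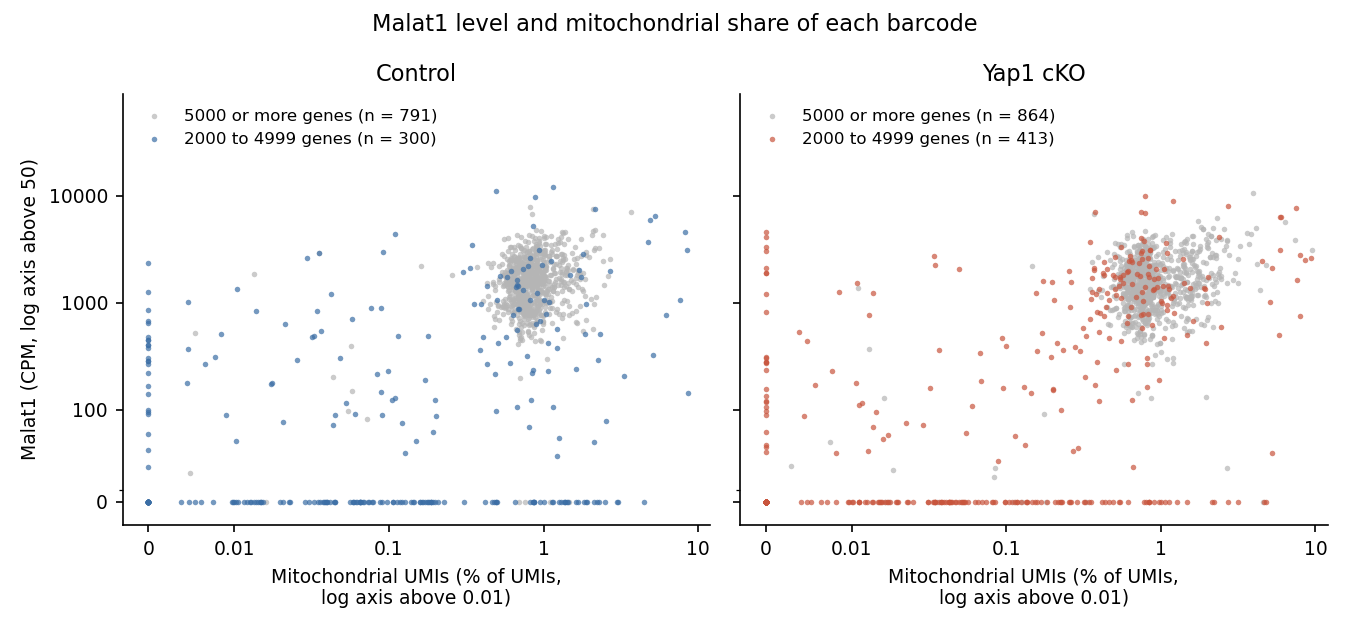
Each point is a barcode, with the mitochondrial share of its UMIs (%) on the x axis and its *Malat1* level (CPM) on the y axis, both on axes that are linear near 0 and logarithmic above. High-gene barcodes (grey) form 1 cloud near 0.8% and 1600 CPM, and the intermediate barcodes (coloured) are spread along the bottom of the plot, where *Malat1* is 0 (149 control and 198 cKO barcodes), with a minority inside the cloud.

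The levels of both measures moved together among the intermediate barcodes. The 147 control barcodes under 0.1% mitochondrial UMIs had a median *Malat1* of 0 CPM, the 54 at 0.1 to 0.5% also 0, the 76 at 0.5 to 2% had 419, and the 23 above 2% had 291. In cKO the corresponding 205, 83, 101 and 24 barcodes had medians of 0, 171, 1332 and 1692 CPM. Ribosomal protein UMIs went the other way, from a median of 27.9% in the lowest control bin to 22.2% in the highest, and from 23.2% to 10.7% in cKO. In the bin above 2% the 10 visceral endoderm markers summed to 16474 CPM in control and 24651 in cKO.

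The ribosomal protein share, the messenger RNAs of the cytosolic ribosome, was high but not uniform. Its median over intermediate barcodes was 26.2% in control and 21.0% in cKO, against 22.9% and 22.2% in high-gene barcodes. It was thus above the high-gene median in control and below it in cKO. Within the clusters of low *Malat1* that had a high-gene namesake it was above the namesake in cKO too. The cKO library held larger shares of visceral endoderm-like, unnamed and high-*Malat1* barcodes. Ribosomal medians in cKO were 19.6% in the low-*Malat1* visceral endoderm-like cluster and 21.0% in the unnamed one. The high-*Malat1* epiblast-like and visceral endoderm-like clusters had 13.9% and 14.7%. The part of these shares in the cKO median was not tested. The 3 bands had 26.1%, 26.7% and 25.8% in control and 20.8%, 21.4% and 20.4% in cKO, with no trend along gene number. The populations differed more than the bands, as given for each of them below.

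**Figure D2:**
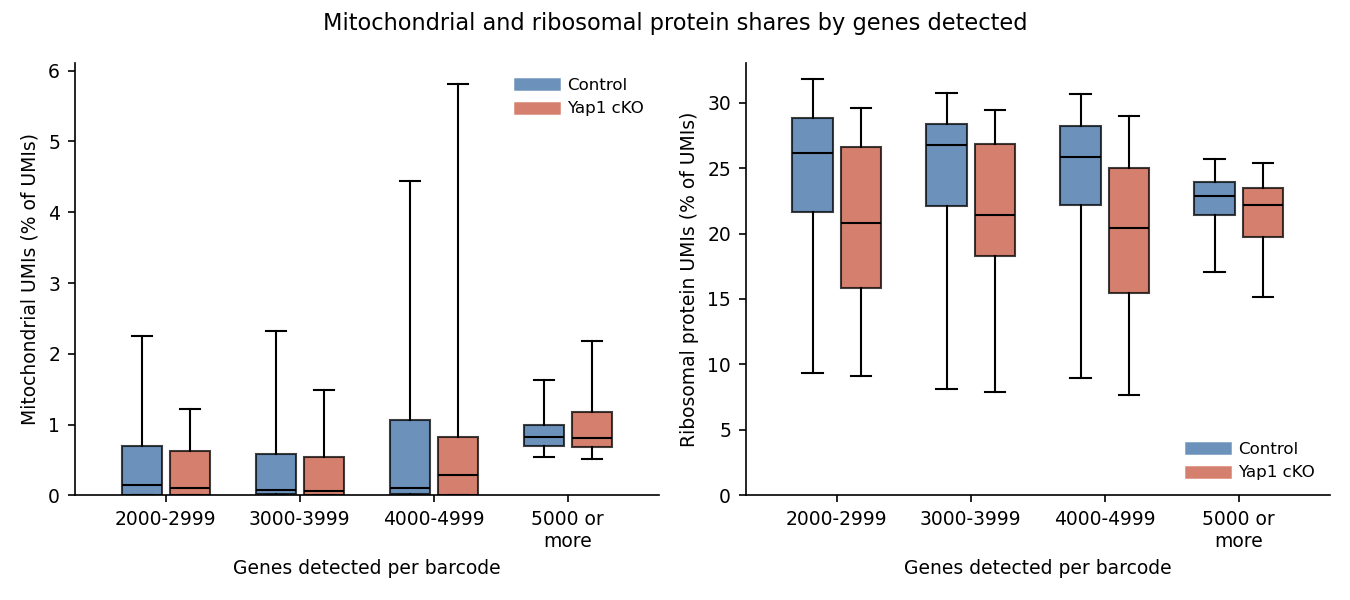
Boxes give the median and quartiles, and whiskers the 5th and 95th percentiles, of the mitochondrial share (left, % of UMIs) and the ribosomal protein share (right, % of UMIs) by genes detected in control (blue) and *Yap1* cKO (red). Mitochondrial medians of the 3 lower bands lie between 0.0597% and 0.290%, below 0.819% and 0.813% in the barcodes with 5000 or more genes.

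Clustered on their own, the intermediate barcodes fell into 7 clusters, 6 of which were named from marker lists as epiblast-like, lateral mesoderm-like, extraembryonic ectoderm-like or visceral endoderm-like. These names rest on the genes that formed the clusters and are a description. The largest cluster was epiblast-like, with 91 control and 77 cKO barcodes and all 8 epiblast markers raised. *Utf1*, a chromatin-associated factor of pluripotent cells (chr7:139943789-139945112), stood at 507 CPM in control and 426 in cKO there and was seen in 87.9% and 72.7% of the barcodes. The RNA-binding protein gene *L1td1* stood at 216 and 181 CPM, and the POU factor gene *Pou3f1* at 216 and 162. In the lateral mesoderm-like cluster, for comparison, *Utf1* was at 1.07 and 5.11 CPM. The median mitochondrial share of this epiblast-like cluster was 0.0731% and 0.115%, and its ribosomal share 28.6% and 26.4%. *Hist3h2ba*, a histone gene, and *Tubb3*, a tubulin gene, had its highest folds against the other clusters.

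A smaller epiblast-like cluster of 14 control and 26 cKO barcodes had the nuclear and mitochondrial RNA that the first lacked. Its median *Malat1* was 1484 CPM in control and 1796 in cKO, its mitochondrial share 0.703% and 0.722%, and its ribosomal share 13.8% and 13.9%. *Malat1* was seen in every barcode of it, and 7 of the 8 epiblast markers were raised, among them *L1td1* at 478 and 490 CPM. Its leading genes by fold were *Dgkb*, *Dgki*, *Kcnj3*, *Dpp6* and *Dlg2*, which are known from neurons as kinase, channel and scaffold genes, and of which *Dgkb*, *Dgki* and *Dlg2* span 817, 454 and 1973 kb. None of the epiblast markers was among its 10 leading genes.

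The lateral mesoderm-like cluster held 66 control and 79 cKO barcodes. Its name is the least secure of the named ones, because 5 of 10 lateral mesoderm markers and 5 of 7 primitive streak markers were raised. Its leading genes were the growth factor gene *Fgf3*, the forkhead gene *Foxf1*, the VEGF receptor gene *Kdr*, *Inka1* and *Pmp22*. *Mesp1*, the transcription factor of nascent mesoderm (chr7:79792241-79793788), stood at 706 CPM in control and 750 in cKO. *Mixl1* and *Eomes*, transcription factors of the streak, stood at 141 and 106 CPM and at 110 and 116 CPM. *Hand1*, of the lateral and extraembryonic mesoderm, stood at 171 and 247 CPM. Markers of streak, nascent and lateral mesoderm thus met in 1 cluster, which among high-gene barcodes were spread over separate clusters. Its median mitochondrial share was 0.0655% in control and 0.0384% in cKO, and its ribosomal share 28.1% and 27.1%.

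Extraembryonic ectoderm formed 1 cluster. Its 56 control and 42 cKO barcodes had all 9 markers of the list raised, and its leading genes were *Elf5*, *Nr0b1*, *Fabp3*, *Wnt7b* and *Wnt6*. *Elf5*, a trophoblast stem cell factor (chr2:103411688-103450989), stood at 399 CPM in control and 414 in cKO, seen in 91.1% and 90.5% of its barcodes, and at 0 to 3.63 CPM in the other clusters. *Cdx2*, another trophoblast factor, stood at 161 and 150 CPM. The median mitochondrial share was 0.190% and 0.419%, and the ribosomal share 26.0% and 25.04%.

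Visceral endoderm appeared in a cluster with little *Malat1* and a cluster with much of it. The first held 37 control and 74 cKO barcodes with 9 of 10 markers raised, and was led by the water channel genes *Aqp3* and *Aqp8*, *Ttr*, *Tmem37* and *Apom*. *Apoa1*, the main protein of high-density lipoprotein, stood at 4355 CPM in control and 4185 in cKO, and the retinol carrier gene *Rbp4* at 2884 and 3493. Median *Malat1* was 0 in both libraries, the mitochondrial share 0.107% and 0.143%, and the ribosomal share 21.1% and 19.6%, against 17.9% and 17.7% in high-gene visceral endoderm. The second cluster held 5 control and 23 cKO barcodes with all 10 markers raised, and was led by the folate receptor gene *Folr2*, *Hnf4aos*, *Gm13270*, the vitamin B12 receptor gene *Cubn* and the transporter gene *Abcc2*. Its median *Malat1* was 1961 and 1386 CPM its mitochondrial share 1.74% and 1.39%, and its ribosomal share 15.5% and 14.7%. *Cubn*, which spans 215 kb, stood at 2222 and 2136.5 CPM in it and at 299.8 and 245 CPM in the first cluster.

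The last cluster, of 31 control and 92 cKO barcodes, remained unnamed, because 1 visceral endoderm marker of 10 and 1 node marker of 8 were raised. It was led by the endoderm transcription factor gene *Sox17* (chr1:4490931-4497354), *Tulp2*, *Rab17*, *Tdrp* and *4933402E13Rik*. *Sox17* stood at 171 CPM in control and 192 in cKO, beside 130 and 124 in the low-*Malat1* visceral endoderm-like cluster. Its visceral endoderm markers were present at lower levels, with *Apoa1* at 1229 and 951 CPM. Across 9530 genes its summed profile correlated best with the visceral endoderm-like cluster of the high-gene barcodes (Spearman's rho 0.895), as a description across genes, which are not independent replicates. Its mitochondrial share was the lowest of all, with a median of 0.0395% in control and 0 in cKO, and its ribosomal share was 22.4% and 21.0%.

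**Figure D3:**
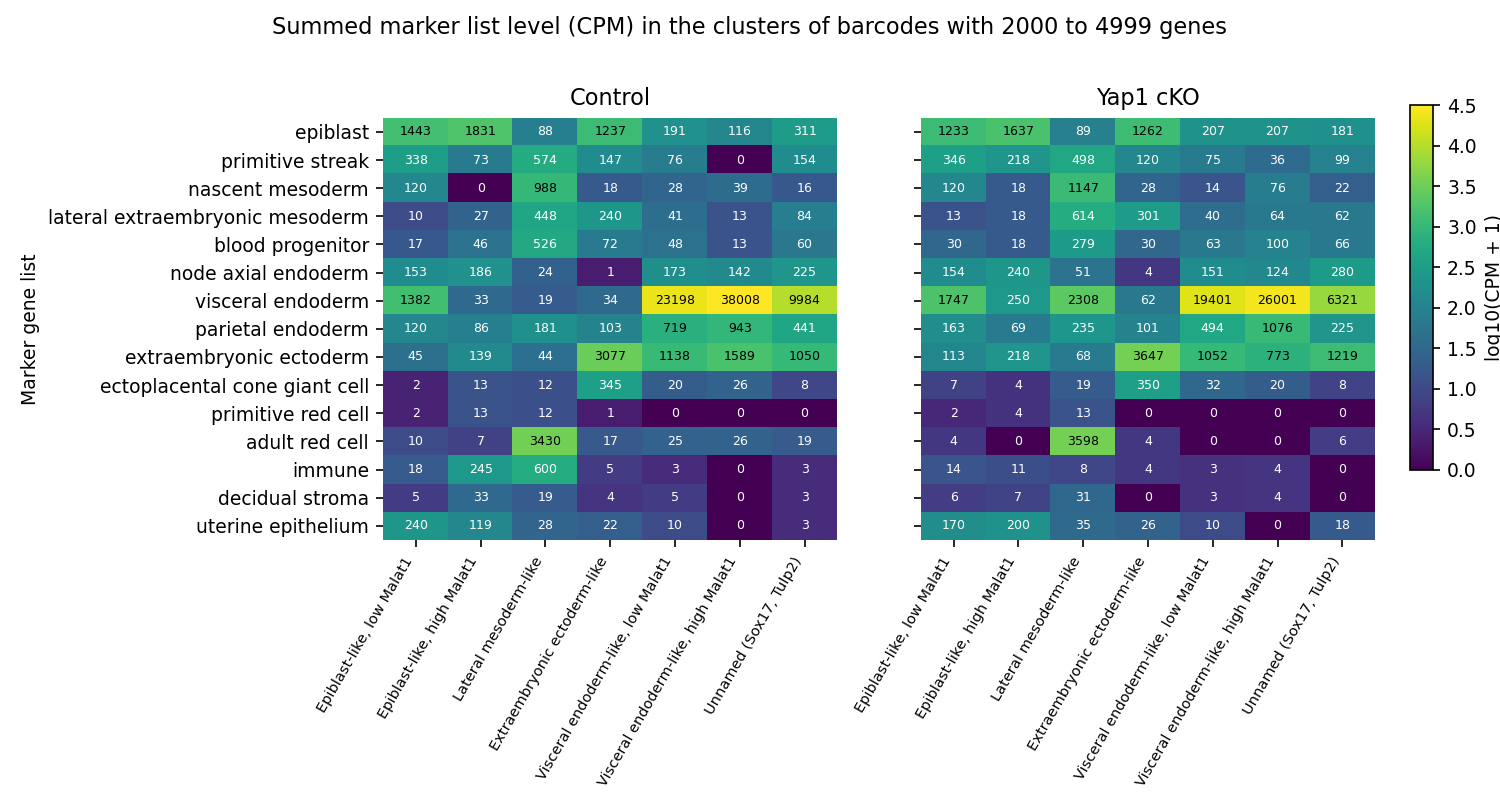
Rows are marker gene lists and columns the 7 clusters of intermediate barcodes in control (left) and *Yap1* cKO (right), with the summed level of each list in CPM printed in each cell and coloured as log10(CPM + 1). The visceral endoderm list stands at 9984 and 6321 CPM in the unnamed cluster, between the visceral endoderm-like clusters (19401 to 38008) and the others.

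The same profile comparison placed the other clusters beside high-gene populations of like name, except that 2 of them had a slightly higher rho with a neighbour. For the large epiblast-like cluster rho was 0.918 with the primitive streak-like cluster of high-gene barcodes (10255 genes) and 0.911 with an epiblast-like one (10315 genes). For the lateral mesoderm-like cluster it was 0.920 with nascent mesoderm (8849 genes) and 0.912 with lateral mesoderm (7609 genes). Genes were chosen for each pair by their UMIs, so gaps this small do not rank the matches. The extraembryonic ectoderm-like cluster reached 0.959, and the high-*Malat1* epiblast-like and visceral endoderm-like clusters 0.928 and 0.942 with their namesakes.

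By population, 105 control intermediate barcodes were epiblast-like (35.0%, 29.6 to 40.7) and 103 cKO ones (24.9%, 20.8 to 29.4). Lateral mesoderm-like barcodes made up 22.0% and 19.1%, extraembryonic ectoderm-like ones 18.7% (14.4 to 23.5) and 10.2% (7.43 to 13.5), visceral endoderm-like ones 14.0% (10.3 to 18.4) and 23.5% (19.5 to 27.9), and unnamed ones 10.3% (7.13 to 14.3) and 22.3% (18.4 to 26.6). High-gene barcodes showed the same order of the libraries for epiblast (27.9% and 20.8%), extraembryonic ectoderm (22.6% and 11.7%) and visceral endoderm (10.2% and 23.6%). For epiblast the groups were not divided alike. The high-gene barcodes had a separate primitive streak cluster, whose shares ran the other way (13.0% and 20.4%), and the intermediate ones did not, so nothing is read from that order. Embryonic clusters together held 57.0% of intermediate barcodes in control and 44.1% in cKO, against 64.0% and 61.6% of high-gene barcodes. Names that occurred only among high-gene barcodes were primitive streak (13.0% and 20.4%), nascent mesoderm (9.99% and 10.5%), node (4.80% and 3.13%) and blood progenitor (2.78% and 1.85%). Since the intermediate barcodes were clustered separately and at lower depth, these absences concern cluster names and not cells. At a clustering resolution of 1.2 a cluster of 29 control and 34 cKO intermediate barcodes was named blood progenitor-like and one of 9 and 12 anterior visceral endoderm-like, led by *Cer1* and *Dkk1*. Another of 37 and 44, left unnamed, had all 7 streak markers raised and was led by *Lefty2*. The shares of named populations moved strongly with the clustering and with which clusters the rule named. When all barcodes were clustered together 80.3% of control and 88.6% of cKO intermediate barcodes lay in clusters left unnamed by the naming rule. One of these, with 69 control and 175 cKO intermediate barcodes, had all 10 visceral endoderm markers raised and was left unnamed because it was shallow and had none of them among its 10 leading genes. It held 21 and 43 *Yap1* UMIs of these barcodes. Another held 172 control and 191 cKO intermediate barcodes (57.3% and 46.2%), with 63 and 9 *Yap1* UMIs.

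**Figure D4:**
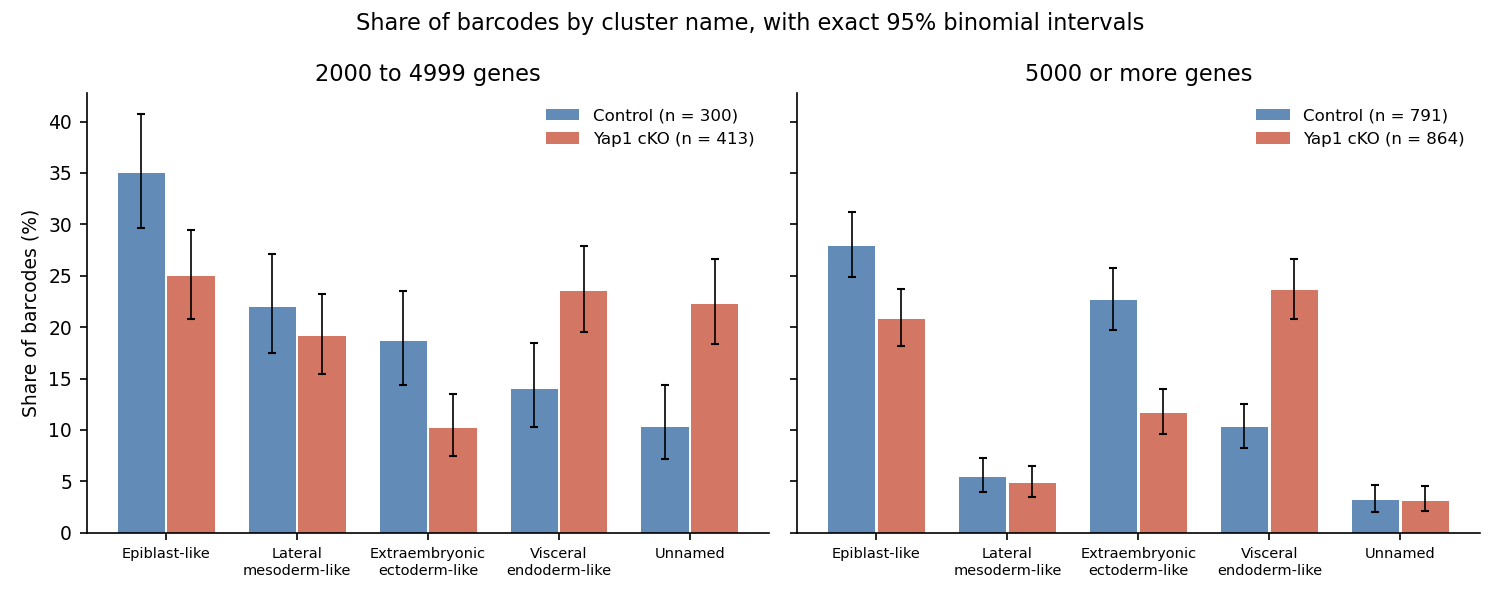
Bars give the share (%) of barcodes in each named population among intermediate barcodes (left) and high-gene barcodes (right) in control (blue) and *Yap1* cKO (red), with exact 95% binomial intervals. The unnamed bars are taller on the left (10.3% and 22.3%), as are the lateral mesoderm-like bars (22.0% and 19.1%). These bars do not compare like populations. The unnamed cluster on the left is led by *Sox17* and *Tulp2*. The one on the right is led by *Sfrp5*, *Cd8a* and *Dkk1*, with 8 of 10 visceral endoderm markers raised. The lateral mesoderm-like cluster on the left also has streak markers raised.

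Summed over all barcodes, without the use of clusters, the marker lists gave the following picture. The visceral endoderm list stood at 4477 CPM in control intermediate barcodes and 3100 in high-gene barcodes, 1.44 times as high (1.42 to 1.47), and at 7180 and 6093 CPM in cKO, 1.18 times (1.17 to 1.19). The cKO ratio was 1.004 under 4000 genes and turned to 0.947 with barcodes weighted equally, so its direction is not settled. The epiblast list stood at 833 and 1126 CPM in control (0.739 times) and 552 and 913 in cKO (0.604 times). The primitive streak list was also lower, 0.846 and 0.632 times, and the nascent mesoderm list was close to the high-gene level, 1.03 and 0.960 times. Lists of anterior visceral endoderm and node stood at 0.590 and 0.529 times and at 0.682 and 0.852 times. The blood progenitor list stood at 158 and 106 CPM in control (1.49 times) and 97.04 and 94.6 CPM in cKO (1.03 times). The lateral mesoderm list (0.773 and 1.19 times) and the extraembryonic ectoderm list (0.881 and 1.13 times) lay on opposite sides of 1 in the libraries.

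Parietal endoderm, ectoplacental tissue, decidua and uterus were not found as populations. The 8 parietal endoderm markers summed to 237 CPM in control and 289 in cKO, against 273 and 306 in high-gene barcodes, and their most abundant gene was *Sparc*, a matrix protein gene that visceral endoderm-like barcodes also held (295 and 187 CPM). *Col4a1*, a basement membrane collagen gene, stood at 57.1 and 83.2 CPM (223 and 404 UMIs), with 140 and 127 CPM in the low-*Malat1* and 413 and 427 CPM in the high-*Malat1* visceral endoderm-like cluster. *Pth1r*, a parathyroid hormone receptor gene, stood at 47.2 and 59.5 CPM (184 and 289 UMIs), with 158 and 99.99 CPM in the low-*Malat1* visceral endoderm-like cluster and 122 and 96.8 in the unnamed one. *Thbd*, the thrombomodulin gene, had 2 UMIs in control, in 1 barcode, and 0 in cKO. The ectoplacental cone and giant cell markers *Tpbpa* and *Prl2c2* were at 0 in both libraries, and *Prl3d1*, a placental lactogen, had 30 UMIs, all in 1 control barcode. The 11 decidual stroma markers summed to 8.97 and 8.45 CPM (35 and 41 UMIs), and the collagen-binding protein gene *Dcn* had 0 and 3 UMIs. All but 1 UMI of the uterine epithelium list came from *Wfdc2*, which was seen in 84.6% of control and 64.9% of cKO barcodes of the large epiblast-like cluster. The embryonic globin genes *Hbb-bh1*, *Hba-x* and *Hbb-y* were at 0 UMIs in both libraries, and the whole primitive red cell list of 7 genes at 4.10 and 3.30 CPM.

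Immune and red cell transcripts came mostly from a few barcodes. The immune list stood at 160 CPM in control intermediate barcodes and 15.3 in high-gene barcodes, and at 6.18 and 9.68 CPM in cKO. In control it rested on 5 barcodes with 36 to 184 immune UMIs each, 4 in the lateral mesoderm-like cluster and 1 in the high-*Malat1* epiblast-like cluster, and in cKO there were 0 such barcodes. Of the 5, 3 held 76 to 110 UMIs of *Lyz2*, the lysozyme of macrophages and other myeloid cells (chr10:117277331-117282321), together with *Tyrobp* and *Fcer1g*. Another held 87 UMIs of *Xcl1*, 81 of *Gzmb* and 62 of *Gzmc*, genes of cytotoxic lymphocytes and natural killer cells, and the fifth held 65 of the chemokine *Ccl5* with 5 of *Cd3e*, a T cell receptor subunit. Their *Malat1* levels ran from 5199 to 11939 CPM, and they had 0 Y-linked UMIs. Without the immune and globin barcodes the control ratio of the immune list was 0.872. Adult globin was carried by 1 control barcode with 3198 UMIs (33.1% of its UMIs) and 1 cKO barcode with 3520 (26.4%), both in the lateral mesoderm-like cluster. The globin genes of a pair are near-identical copies, so the split among *Hba-a1*, *Hba-a2*, *Hbb-bs* and *Hbb-bt* is uncertain.

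Visceral endoderm RNA also occurred in barcodes of embryonic clusters. A sum over 200 CPM of the endoderm genes *Afp*, *Apoa1*, *Apoa4*, *Rbp4* and *Ttr* was found in 5 of 171 embryonic intermediate barcodes in control (2.92%, 0.956 to 6.69) and 18 of 182 in cKO (9.89%, 5.97 to 15.2), against 1 of 506 and 8 of 532 high-gene barcodes. Their median sum was 14779 CPM in control and 8470 in cKO, and 3 and 11 of them exceeded 5000 CPM, near the medians of the low-*Malat1* visceral endoderm-like cluster (9727 and 10022). Their median epiblast list level was 151 and 27.9 CPM, and 2 in each library held at least 10 epiblast marker UMIs. Many thus had the endoderm level of barcodes named as endoderm. The doublet caller marked 0 of the control ones and 1 of the cKO ones. Free RNA, mixed barcodes and assignment to a wrong cluster were not tested as sources.

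Intermediate and high-gene barcodes of the same population name were then compared gene by gene, counting genes that differed more than 2-fold in the same direction in both libraries. A gene entered with 100 UMIs in both groups together, most of which the deeper high-gene barcodes supplied, so genes low in the intermediate barcodes entered more easily than genes high in them. The numbers of lower and higher genes are therefore not compared. In visceral endoderm-like barcodes 311 of 6838 genes were lower (4.55%) and 2 higher (0.0292%), in epiblast-like ones 284 of 9273 were lower (3.06%) and 37 higher (0.399%), in lateral mesoderm-like ones 193 of 5346 lower (3.61%) and 11 higher (0.206%), and in extraembryonic ectoderm-like ones 166 of 8170 lower (2.03%) and 4 higher (0.049%). Most lower genes rested on few UMIs in the intermediate barcodes, with medians of 2 to 20 per library. Counting intervals left out a ratio of 1 in both libraries for 296 of the 311 genes in visceral endoderm-like barcodes, 221 of 284 in epiblast-like ones, 193 of 193 in lateral mesoderm-like ones and 78 of 166 in extraembryonic ectoderm-like ones. The counts of lower genes depended on which barcodes entered: without the clusters rich in *Malat1*, a step chosen after seeing the data, 1229 genes were lower in epiblast and 801 in visceral endoderm, and at a 5% mitochondrial limit 312 were lower in extraembryonic ectoderm and 294 in lateral mesoderm. With a filter that weights both groups equally (a mean of at least 50 CPM in each library, chosen after seeing the data) the counts were much smaller. Then 64 of 3013 genes were lower and 2 higher in visceral endoderm, 17 of 2858 lower and 12 higher in epiblast, 58 of 2871 lower and 7 higher in lateral mesoderm, and 6 of 2939 lower and 2 higher in extraembryonic ectoderm.

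The nuclear non-coding RNAs were low in visceral endoderm and, by fewer genes, in the other populations. Over all intermediate barcodes the 7 of them summed to 679 CPM in control and 893 in cKO, against 2244 and 2301 in high-gene barcodes, 0.303 and 0.388 times as high. In visceral endoderm-like barcodes 6 of 6 tested were called lower, where 4.55% of all genes were, with median log2 ratios of -1.79 and -1.79 where all genes had -0.13 and -0.09. In extraembryonic ectoderm-like barcodes 3 of 6 were lower (all genes 2.03%, median -2.15 and -1.08, all genes -0.19 and 0.03), in epiblast-like ones 1 of 5 (all genes 3.06%, median -1.60 and -0.89, all genes -0.24 and -0.06), and in lateral mesoderm-like ones 1 of 5 (all genes 3.61%, median -2.37 and -0.38, all genes -0.21 and -0.08). *Malat1* itself had log2 ratios of -1.87 and -1.95 in visceral endoderm, -2.39 and -1.26 in extraembryonic ectoderm, -1.54 and -1.40 in lateral mesoderm and -2.09 and -0.89 in epiblast, the last of which misses the 2-fold limit in cKO. *Kcnq1ot1* and *Meg3*, imprinted non-coding RNAs, stood at 0 and 20.3 CPM in the low-*Malat1* visceral endoderm-like cluster of control and 6.59 and 48.3 in that of cKO, against 122 and 577 CPM and 128 and 712 CPM in high-gene visceral endoderm.

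Mitochondrially encoded messenger RNAs were lower in lateral mesoderm-like barcodes, where 7 of 13 passed 2-fold (3.61% of all genes, median log2 ratio -1.25 and -1.15 where all genes had -0.21 and -0.08). In visceral endoderm-like and extraembryonic ectoderm-like barcodes 1 of 13 passed, where 4.55% and 2.03% of all genes did. The medians were -0.53 and -0.95 in visceral endoderm (all genes -0.13 and -0.09). In extraembryonic ectoderm they were -0.71 and -0.10 (all genes -0.19 and 0.03). In epiblast-like barcodes 0 passed, where 3.06% did (medians -0.36 and -0.52, all genes -0.24 and -0.06). These pool both epiblast-like clusters, of which the larger had 57.1% and 49.4% of its barcodes under 0.1% mitochondrial UMIs. The 20 nuclear-encoded respiratory chain genes had none past 2-fold in any of the 4 populations, and the 34 cytosolic ribosomal protein genes had none either, with medians between -0.05 and 0.33. Of all genes 2.03% to 4.55% were lower in these populations, so nothing is read from these counts of 0.

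Genes that lay lower were long. The median span of lower genes, from the first to the last annotated base, was 114 kb in visceral endoderm-like barcodes, 87.3 kb in lateral mesoderm-like, 75.4 kb in extraembryonic ectoderm-like and 72.0 kb in epiblast-like ones, where the tested genes had medians of 24.9 to 26.4 kb. Among genes over 200 kb 28.2%, 14.0%, 11.2% and 13.7% were lower in these 4 populations, and among genes under 5 kb 0.945%, 2.04%, 0.668% and 1.42%. The median log2 ratio of genes over 200 kb was -1.18 in control and -0.87 in cKO for visceral endoderm, -1.45 and -0.53 for lateral mesoderm, -1.38 and -0.27 for extraembryonic ectoderm and -1.27 and -0.45 for epiblast. The libraries therefore differed in the size of this difference in every population, most in extraembryonic ectoderm. Over all barcodes, genes over 200 kb took 0.978% of UMIs in control and 1.33% in cKO intermediate barcodes, against 2.16% and 2.10% in high-gene ones. The clusters rich in *Malat1* went the other way. Such genes took 3.47% and 3.69% in the epiblast-like one, above the 1.86 to 2.50% of the high-gene epiblast-like clusters, and 2.38% and 2.45% in the visceral endoderm-like one, above 2.16% and 2.06%. The former made up 26 of 103 epiblast-like barcodes in cKO and 14 of 105 in control, and its part in the difference between libraries was not tested. The pipeline used counts intronic reads by default, and long genes yield more of them, as background. Gene span was examined after the gene counts had been seen. With the filter that weights both groups equally the medians over 200 kb were -1.14 and -0.94 in visceral endoderm, -1.27 and -0.58 in lateral mesoderm, -1.22 and -0.50 in epiblast and -1.01 and -0.15 in extraembryonic ectoderm, the last over 45 genes.

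**Figure D5:**
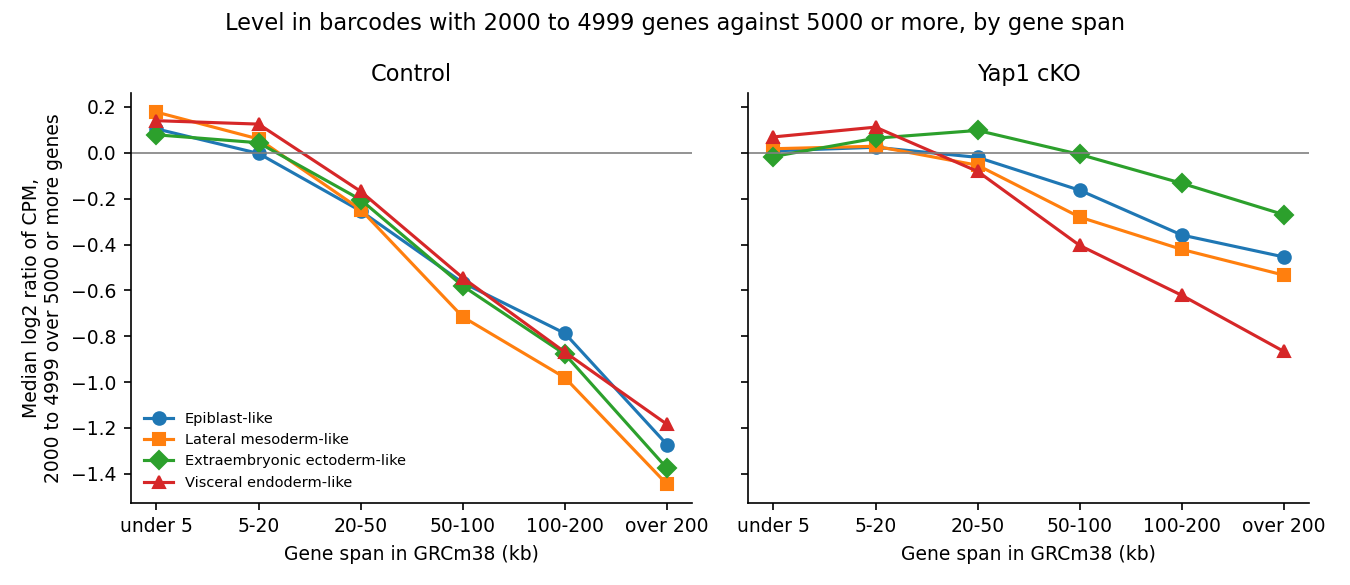
The x axis bins genes by their span in GRCm38 (kb) and the y axis gives the median log2 ratio of CPM in intermediate over high-gene barcodes of the same population name, in control (left) and *Yap1* cKO (right). In both libraries and all 4 populations the medians over 200 kb (-1.45 to -0.27) lie below those under 5 kb (-0.02 to 0.18).

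Single genes are named by rank. Those at 0 to 6 UMIs in the intermediate barcodes entered through the high-gene barcodes and stand at the floor, so their order among the lowest is not a result. In visceral endoderm-like barcodes the lowest included *Gm45866*, *Tex14*, *Parp16* and *Arhgef4*, with 0 or 1 UMIs in control and 1 to 6 in cKO where high-gene barcodes held 105 to 159 and 199 to 466. In lateral mesoderm-like barcodes they were *Kif26b*, *C430049B03Rik*, *Bmp4*, *Cpne4* and *Prkd1*. *Bmp4*, a growth factor gene, stood at 12.8 CPM in control and 17.4 in cKO, against 134 and 87.3 in high-gene lateral mesoderm (log2 ratio -3.33 and -2.29). *C430049B03Rik*, a short non-coding transcript, stood at 18.2 and 30.6 CPM against 285 and 155. *Bmp4* was 1 of 3 lower genes among the 6 lateral mesoderm markers tested, with *Foxf1* and *Pmp22* (list medians -2.05 and -0.89), where 3.61% of all genes were lower. The 2 clusters compared differ in make-up, since the intermediate one also had streak and nascent mesoderm markers raised. Its profile was about as close to high-gene nascent mesoderm (rho 0.920) as to high-gene lateral mesoderm (0.912). In epiblast-like barcodes the lowest were *Eya4*, *Trim46*, *Tubgcp6*, *Gm31645* and *Slc45a1*, with 0 or 1 UMIs each. In extraembryonic ectoderm-like barcodes they were *Amot*, which encodes a partner of YAP1, *Lrrc14*, *Olfr655*, *Rnf169* and *Iqgap2*, with 0 to 3 UMIs each.

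Among the higher genes, *AY036118*, a transcript annotated over ribosomal RNA repeats, was higher in extraembryonic ectoderm (2639 and 479 CPM against 246 and 91.9) and in visceral endoderm (658 and 363 against 206 and 130). *Gm42418*, of the same kind, was higher in extraembryonic ectoderm, at 2924 and 1149 CPM against 794 and 529, and in visceral endoderm *Gm42418* had log2 ratios of -0.04 and -0.05 and *Gm26917*, the last of the 3 such transcripts, was lower (-2.80 and -1.59). *Rpgrip1*, *Xab2* and *Traf2* completed the lists of these 2 populations. Of the 3 ribosomal RNA repeat transcripts 1 was called higher in epiblast-like barcodes too (list medians 0.82 and 1.22), where 0.399% of all genes were. In lateral mesoderm-like ones 0 of the 3 were (0.27 and 1.10). In epiblast-like barcodes the highest were the visceral endoderm genes *Apob*, *Cubn*, *Apoa1*, *Ttr* and *Apoc2*. There 6 of the 6 visceral endoderm markers tested were higher, where 0.399% of all genes were. *Apob*, the protein scaffold of lipoproteins (chr12:7977648-8016835), stood at 203 and 155 CPM against 0.339 and 1.47. This signal rested on few barcodes: in the large epiblast-like cluster the summed level of *Afp*, *Apoa1*, *Apoa4*, *Rbp4* and *Ttr* was 612 CPM in control and 854 in cKO, and 6.11 and 16.7 CPM without the 5 control and 8 cKO barcodes over 200 CPM. In lateral mesoderm-like barcodes the highest were *Hbb-bt*, *Hba-a1*, *Hbb-bs* and *Hba-a2*, which rested on 1 globin barcode in each library, followed by the streak factor gene *Sp5*, at 96.2 and 85.8 CPM against 17.9 and 10.4. It was the 1 higher gene of 6 streak markers tested there, where 0.206% of all genes were higher. Of 4 nascent mesoderm markers tested 1 was also higher. The cluster mixes streak, nascent and lateral mesoderm markers. In epiblast-like barcodes both streak markers tested, *Eomes* and *Fst*, were higher, where 0.399% of all genes were. The high-gene streak barcodes formed a cluster of their own (103 control and 176 cKO) and the intermediate ones did not, so the groups compared were not divided alike.

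The unnamed cluster and the low-*Malat1* visceral endoderm-like cluster had like depths (medians of 9873 and 8762 UMIs in control, 9479.5 and 9817 in cKO) and differed in groups of genes. The comparison is a description, since these genes helped to form the clusters and the 3 lists used were chosen after the values had been seen. Numbers of list members lower or higher are given here and in the next paragraph without the share over all genes. Nothing about the lists is therefore read from these numbers. Genes of the endoplasmic reticulum, where secreted and membrane proteins are made, summed to 6041 CPM in control and 5417 in cKO in the unnamed cluster, against 10704 and 10651. The ratios were 0.564 (0.536 to 0.594) and 0.509 (0.492 to 0.525), and 28 of 29 genes were lower in each library. *Hspa5*, the main chaperone of that compartment (chr2:34771970-34777547), stood at 287 and 227 CPM against 617 and 668, and *Calr*, a calcium-binding chaperone, at 138 and 103 against 313 and 355. Lysosomal genes were lower still, with 3770 and 2495 CPM against 11680 and 10329 and ratios of 0.323 and 0.242. Of these 16 genes 13 were lower in control and 15 in cKO, among them the protease gene *Ctsb* (284 and 189 CPM against 882 and 960). *Apob* stood at 346 and 212 CPM against 1235 and 926.

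Genes of cytosolic complexes and of the ribosome did not follow. Proteasome and chaperonin genes stood at 1.10 (1.06 to 1.15) and 1.08 (1.06 to 1.11) times the level of the visceral endoderm-like cluster, with 20 and 21 of 22 genes higher, and the ribosomal protein list at 1.02 and 1.05 times. *Krt8*, an epithelial keratin gene, was higher in the unnamed cluster at 604 and 583 CPM against 328 and 352. Mitochondrially encoded genes stood at 0.998 times in control and 0.794 in cKO. The nuclear non-coding list was not lower but 4.48 times as high in control (1286 against 287 CPM) and 1.53 times in cKO (536 against 351). In control, 1 of the 31 barcodes of the unnamed cluster held 39.2% of the UMIs of this list there. Median *Malat1* was 0 in both clusters and both libraries, so a minority of barcodes carried these sums. In high-gene visceral endoderm the endoplasmic reticulum list stood at 11614 and 12007 CPM and the lysosomal list at 9324 and 8710, so that the named cluster was near the high-gene level for both.

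*Yap1* (chr9:7931999-8004596, minus strand) was low in embryonic barcodes of the cKO library and present in its extraembryonic ones. In embryonic clusters 59 UMIs were counted in control (25.8 CPM, in 52 of 171 barcodes) and 6 in cKO (2.77 CPM, in 6 of 182), a ratio of 0.108 (0.0380 to 0.248). High-gene embryonic barcodes gave 29.999 and 1.96 CPM, a ratio of 0.0653 (0.0526 to 0.0802). Of the 6 cKO UMIs 4 lay in the 18 embryonic barcodes rich in visceral endoderm RNA, and without such barcodes the ratio was 0.0399 (0.00471 to 0.151). In extraembryonic ectoderm-like barcodes *Yap1* stood at 19.4 and 25.8 CPM (ratio 1.33, 0.568 to 3.04), and in visceral endoderm-like ones at 21.2 and 18.95 (0.893, 0.406 to 2.11). The unnamed cluster held 43.3 and 22.5 CPM (0.521, 0.265 to 1.05). Median depths of the embryonic barcodes were 10642 and 10593 UMIs. High-gene barcodes gave ratios of 0.729 (0.619 to 0.858) for extraembryonic ectoderm and 0.869 (0.731 to 1.04) for visceral endoderm. At the counts of the intermediate barcodes a change of that size in the extraembryonic clusters was not detectable. A 3' count need not fall in the deleted exons, so the values check the library labels and not the size of the deletion.

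Of the 16 genes the study named, 6 had a cKO to control ratio whose counting interval left out 1 in embryonic intermediate barcodes. Of the 8 among them with at least 100 UMIs 3 did so, where 1371 of all 4985 genes with that many UMIs did (27.5%), so nothing about these genes as a group is read from the count. Beside *Yap1* these were the TGF-beta family ligand gene *Nodal* (3.93 and 12.5 CPM, ratio 3.17, 1.45 to 7.67), the ligand gene *Wnt3* (6.56 and 13.4 CPM, 2.05, 1.06 to 4.10), the growth factor gene *Fgf8* (106 and 160 CPM, 1.51, 1.28 to 1.78), the BMP target gene *Id1* (130 and 154 CPM, 1.18, 1.01 to 1.39) and the demethylase family gene *Jmjd1c* (58.6 and 86.9 CPM, 1.48, 1.18 to 1.87). Without the barcodes rich in visceral endoderm RNA the *Id1* interval included 1 (1.16, 0.987 to 1.37). High-gene embryonic barcodes gave 1.83 for *Nodal*, 1.34 for *Wnt3*, 1.73 for *Fgf8* and 1.41 for *Id1*, in the same direction, but 0.861 for *Jmjd1c*. The YAP1 target genes *Ccn1*, *Ccn2* and *Amotl2* had 6 and 6, 9 and 5, and 33 and 18 UMIs in the intermediate barcodes, too few to tell their ratios of 1.06, 0.588 and 0.577 from 1. High-gene barcodes gave 0.307, 0.556 and 0.385 for them. The Hippo pathway gene *Wwc2* had 53 and 67 UMIs and a ratio of 1.34 (0.919 to 1.955) against 0.560 (0.523 to 0.600) in high-gene barcodes. *Ptpn14*, another gene of the pathway, had 24 and 19 UMIs and a ratio of 0.837 (0.434 to 1.595) against 0.582. *Jmjd1c*, *Wwc2* and *Ptpn14* span 160, 167 and 148 kb. Genes of 100 to 200 kb took 2.33% of control and 3.19% of cKO UMIs in the lateral mesoderm-like cluster. They took 2.17% and 2.31% in the large epiblast-like cluster and 5.82% and 5.72% in the high-*Malat1* one. The part of gene span in these ratios was not tested. *Qser1*, which encodes a protein that guards DNA from methylation, stood at 48.5 and 61.0 CPM (ratio 1.26, 0.970 to 1.63, against 0.787, 0.753 to 0.823, in high-gene barcodes), *Dnmt3b*, a DNA methyltransferase gene, at 615 and 574 (0.934, against 0.929), and *Nanog*, the pluripotency factor gene, at 48.1 and 43.5 (0.904, 0.679 to 1.201, against 1.26, 1.18 to 1.35).

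Among 4985 genes with enough UMIs in embryonic intermediate barcodes, the lowest in cKO by rank were *Lyz2* (276 UMIs in control and 0 in cKO), the histocompatibility gene *H2-K1* (87 and 13) and the endothelial and blood factor gene *Fli1* (79 and 22), and the highest were the guidance gene *Slit3* (23 and 101), *Rhox5* (17 and 97) and *Rbp4* (101 and 839). The values of 4 of them depended on the special barcodes described above. Without the immune, globin and endoderm-rich barcodes *Lyz2* had 0 UMIs in both libraries, *H2-K1* had a ratio of 0.850 (0.334 to 2.10), and *Rhox5* and *Rbp4* had 5 and 14 and 5 and 15 UMIs, with ratios of 3.09 (1.05 to 11.0) and 3.31 (1.14 to 11.7). *Fli1* kept a ratio of 0.307 (0.177 to 0.509) and *Slit3* one of 4.71 (2.96 to 7.77). *Slit3* spans 587 kb. Genes over 200 kb took 0.937% of UMIs in control and 1.75% in cKO in the lateral mesoderm-like cluster. In the large epiblast-like cluster they took 0.776% and 0.953%. The part of gene span in the ratio of *Slit3* was not tested.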

How the data were processed

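Single cells of pooled embryonic day 7 embryos were measured in 2 libraries, 1 control and 1 *Yap1* cKO. The values were raw UMI counts per gene and barcode, which the authors deposited as 2 matrices after Cell Ranger 7.1.0 with the mm10 genome. The study's methods then assessed doublets with scrublet and free RNA with SoupX, and dropped doublets and barcodes under 5000 genes or over 10% mitochondrial UMIs. The deposited counts were whole numbers and still held the barcodes that these steps remove. Free RNA was not corrected here, and barcodes called by scrublet (scanpy 1.11.5) were kept, 0 control and 2 cKO intermediate ones.

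Intermediate and high-gene barcodes were clustered separately in Seurat 5.3.0 with sctransform 0.4.2 (R 4.3.3), regressing depth, mitochondrial and ribosomal shares and cycle scores, with 3000 features and 19 components, after the study's methods, and at a resolution of 0.8, which was chosen here. The features excluded sex-linked, ribosomal and mitochondrial genes and those the study named. A marker counted as raised in a cluster at 1.5-fold over the others and in 25% of its barcodes. A cluster took the name of the list with most raised markers, at least 3, and ties went to the larger mean log2 fold. It stayed unnamed where another list had more genes among its 10 leading genes, or where its own list had 0 there and either led the next list by fewer than 2 raised markers or the cluster's depth was low (median UMIs relative to the library median below 1 in 3).

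Summed UMIs per library were given as CPM with exact Poisson intervals, ratios with exact conditional binomial intervals and shares with Clopper-Pearson intervals, at 95%. UMIs mark molecules, so intervals cover counting error within 1 library and no variation among embryos. Gene comparisons used genes with at least 100 UMIs in both groups together in each library, a 2-fold limit in both libraries, and 0.5 UMIs added for log2 ratios. Calculations used Python 3.11.15, NumPy 2.4.6, SciPy 1.17.1 and pandas 2.3.3, and figures matplotlib 3.10.9. Scripts were tested on simulated counts. GENCODE M21 annotation (GRCm38) matched 32158 of 32285 gene identifiers and gave spans and positions.

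Named genes were the 3 most abundant of each marker list, the 5 leading genes of each cluster, the 5 highest and 5 lowest of each population comparison, the genes the study named, and the 3 highest and 3 lowest between genotypes. Some genes that this rule names are not reported here. *Hist3h2ba*, *Tubb3*, *Hspa5*, *Calr*, *Ctsb*, *Krt8*, *Cubn*, *Thbd*, *Phgdh*, *Gm26917* and the genes of single immune barcodes were chosen after their values were seen. The barcodes, lists and comparisons were chosen with earlier results of these data known. The endoplasmic reticulum, lysosome and proteasome lists and the gene span step were added after the values were seen. Alternatives varied the mitochondrial limit, the gene limits, the clustering, the weighting, the UMI minimum and the thinning depth.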

Additional observations from a re-analysis of the deposited data

Results flagged for a closer look

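The intermediate-to-high-gene ratio of 5 lists lay on opposite sides of 1 in the 2 libraries, with counting intervals that left out 1 in both. With 1 library per genotype these differences were not tested. The lateral mesoderm list stood at 0.773 times in control and 1.19 times in cKO, and the extraembryonic ectoderm list at 0.881 and 1.13 times. The immune list stood at 10.5 and 0.639 times, and in control it rested on 5 barcodes. The heat shock list stood at 0.965 and 1.02 times, and the cytosolic ribosomal protein list at 1.13 and 0.988 times. At a 5% mitochondrial limit the cKO ratio of the ribosomal list was 1.01, on the side of control.

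Barcodes with fewer than 2000 genes, which enter no comparison above, held adult globin at 192126 CPM in control and 97163 CPM in cKO. Of these, 104 of 641 control and 32 of 512 cKO barcodes exceeded 10000 CPM of globin, with medians of 80 and 105.5 genes and of 95.4% and 95.8% globin UMIs. In the control barcodes with fewer than 2000 genes the decidual stroma list stood at 344 CPM, of which 85.6% came from 1 barcode, with *Prl8a2*, a decidual prolactin family gene, as its most abundant gene at 331 CPM.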

How the results depend on the processing

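No paired analysis was possible because each genotype had 1 library and no result came from a test. Alternatives were planned except where said otherwise. Of the values that answer a comparison, 101 moved by less than their counting error or 1.5 times, 54 moved further and 1 changed direction. Of the other values 243 moved by less, 21 moved further, 2 fell below 2-fold (*Rpgrip1* in visceral endoderm and *Gm42418* in extraembryonic ectoderm) and 2 changed direction (the cKO ribosomal and the control immune ratio).

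The shares of populations depended on the clustering and on which clusters the rule named, since embryonic shares count named clusters only. Clustered with the barcodes of 5000 or more genes, 1.67% of control and 1.21% of cKO intermediate barcodes were in embryonic clusters and 80.3% and 88.6% in unnamed ones, and *Yap1* had a ratio of 0, from 5 barcodes and 1 UMI in control and 5 barcodes and 0 UMIs in cKO, which gives no information on it. The unnamed clusters included one with all 10 visceral endoderm markers raised, which the depth condition of the naming rule left unnamed. Without integration the values were 35% and 26.6% embryonic and 29% and 38.7% unnamed, and at resolution 1.2 they were 44.3% and 33.2% embryonic and 19.3% and 29.8% unnamed. The unnamed clusters included ones with streak markers raised. Without integration such a cluster held 65 control and 75 cKO barcodes (6 of 7 raised), and at resolution 1.2 one held 37 and 44 (7 of 7). At resolution 0.4 the cKO embryonic share was 50.1%. The cause was not tested. The median ribosomal share from the fixed list of 34 genes, which counts fewer genes, was 13.2% and 10.6%. Thinned to the 25th percentile, intermediate barcodes had 84.3% and 86.9% of the genes of high-gene ones.

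The visceral endoderm ratio in control was 1.32 at a 5% mitochondrial limit, 1.41 from 2500 genes, 1.29 under 4000 genes, 1.39 with barcodes weighted equally and 1.49 without mitochondrial and ribosomal UMIs. In cKO it was 1.08 at 5%, 1.21 from 2500 genes, 1.004 under 4000 genes and 0.947 with equal weights, which reversed it. The epiblast ratio was 0.777 and 0.638 under 4000 genes and 0.691 in cKO with equal weights. The cytosolic ribosomal ratio in cKO was 1.01 at 5%, and the immune ratio in control was 0.872 without the globin and immune barcodes, a step chosen after seeing the data. The immune ratio was 1.32 from 2500 genes, a limit that leaves out most immune barcodes.

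Counts of genes depended on the UMI minimum. With at least 50 UMIs, 67 genes were higher in epiblast, 22 higher and 325 lower in lateral mesoderm, 5 higher in visceral endoderm, and 17 higher and 280 lower in extraembryonic ectoderm. With at least 200, 21 were higher and 164 lower in epiblast, 5 higher and 85 lower in lateral mesoderm, 203 lower in visceral endoderm and 86 lower in extraembryonic ectoderm. At the 5% mitochondrial limit 21 were higher in epiblast, 294 lower in lateral mesoderm and 312 lower in extraembryonic ectoderm. Without the high-*Malat1* clusters, chosen after seeing the data, 1229 genes were lower in epiblast, and 4 were higher and 801 lower in visceral endoderm. With a mean of both groups of at least 50 CPM, also chosen after seeing the data, 12 were higher and 17 lower in epiblast, 7 and 58 in lateral mesoderm, 2 and 64 in visceral endoderm, and 2 and 6 in extraembryonic ectoderm.

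With 1 library per genotype, nothing separates genotype from library. Intermediate barcodes are far shallower than high-gene ones, so genes of a few UMIs are imprecise, and free RNA was not corrected.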

Other observations

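Further lists fixed with the marker lists were also summed over the intermediate barcodes. Integrated stress response genes, which cells raise when protein synthesis is restrained, stood at 523 CPM in control and 635 in cKO, against 421 and 409 in high-gene barcodes (1.24 and 1.55 times). *Phgdh*, a serine synthesis gene, made up most of this list, with 294 and 372 CPM against 191 and 193. Of its 4 to 6 members tested in each of the 4 population comparisons 0 were called higher. Of all genes 0.0292% to 0.399% were, so nothing is read from this count. Glycolysis genes stood at 1.19 and 1.07 times, and actin, tubulin and translation factor genes at 1.12 and 1.12 times. S phase genes (1.04 and 0.985 times), mitosis genes (0.975 and 1.01 times) and p53 and apoptosis genes (0.989 and 0.871 times) were close to the high-gene level, and immediate early genes stood at 0.948 and 0.910 times. The mature endothelium list was at 4.61 and 4.33 CPM. Transcripts annotated over ribosomal RNA repeats stood at 2.17 and 1.80 times. The endoplasmic reticulum list, the lysosomal list and the proteasome and chaperonin list were not fixed with the others but added after the values were seen. Over all intermediate barcodes they stood at 0.811 and 0.920 times, at 1.41 and 1.498 times and at 1.17 and 1.17 times, in that order.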
